A study of Homo sapiens with 6 samples.

Results

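The genes described here are 45 genes of mitosis and the spindle, measured among 27734 gene rows in PC-3 cells. They were listed by symbol for their place in the machinery of cell division; the list itself uses no expression threshold, but it was drawn up with earlier results of these data known. They cover the switch that starts mitosis, the kinases that drive it, the spindle checkpoint, the kinetochore, the motors and bundlers of the spindle, cytokinesis, the transcription factors that turn the programme on, and the proliferation markers MKI67 and TOP2A. All 45 had a unique symbol, all passed the filter on low values, and they lie on 16 chromosomes.

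PC-3 is an established human prostate cancer cell line. The resistant cells (GDC_R) were kept under continuous GDC-0068, also called ipatasertib, an inhibitor of the kinase AKT, which relays growth and survival signals, and the parallel control cells received the vehicle DMSO. Total RNA was sequenced from 3 libraries of each group, and both groups grew in the same serum-containing medium within the same range of passages. The dose, whether the drug was present when RNA was taken, and whether the resistant cells are a clone or a pool could not be learned from the labels. The labels also do not say whether libraries are separate cultures, so the p-values measure the spread between these libraries, which may be technical.

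Mitosis begins when CDK1 bound to cyclin B becomes active, with WEE1 holding the kinase off and CDC25 phosphatases releasing it. Unattached kinetochores then keep CDC20 from activating the anaphase-promoting complex (APC/C), the ubiquitin ligase that destroys cyclin B and securin once every chromosome is attached. Most of these genes are transcribed late in the cell cycle, by FOXM1 and by MYBL2 with the MuvB complex, so their RNA is widely used as a readout of how much of a culture is dividing. In bulk RNA, a smaller share of cells in G2 or mitosis and less RNA per cell cannot be told apart.

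Gene counts summed to between 35562400 and 44279078 fragments per library, and the members held 437 to 29859 fragments each in any library. Libraries of the resistant group correlated with each other at r = 0.996 in every pair, on log2 counts across the tested genes. The 2 control pairs that include control replicate 1 were lower, at 0.990 and 0.992, against 0.996 for control replicates 2 and 3. Control replicate 1 also stood apart by base composition: its deviation from the mean of the controls ran against transcript GC content with a Spearman rho of -0.76 over 12503 genes. The same rho was 0.60 and 0.65 for control replicates 2 and 3, whose deviations from the shared mean must balance that of replicate 1, and lay between -0.21 and 0.21 for the resistant libraries around their own mean. Results of the members that rest on this library are therefore given with it and without it. The epithelial markers KRT8, KRT18, EPCAM and CDH1 were all present, with a summed level of 813 to 872 FPKM (fragments per kilobase of mRNA, scaled to the library's fragment total) in control and 793 to 828 in resistant libraries. The sum is mostly keratin, and within it CDH1 was at 63.8, 65.7 and 66.2 FPKM in controls and 32.9, 34.7 and 34.5 FPKM in resistant libraries. The part of these markers in the results was not tested. The 4 leukocyte markers summed to at most 0.25 FPKM in any library. Of the endothelial and fibroblast markers the sums were 0.83 to 1.10 and 2.61 to 3.39 FPKM in control libraries, and 0.30 to 0.47 and 1.75 to 2.02 in resistant libraries. The luminal prostate markers summed to 6.59 to 7.31 and 8.89 to 9.37 FPKM, with KLK3 at 0 in all libraries.

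The mitotic programme was neither raised nor lowered as a block in the resistant cells. Among the 45 members, 8 rose, 9 fell and 28 did not pass the test (edgeR's quasi-likelihood test, Benjamini-Hochberg adjusted p under 0.05 over 13070 genes). That is 37.8% of the members called, where 50.2% of all tested genes were called, 24.5% higher and 25.7% lower. The median log2 fold change (resistant over control) was -0.04 over the members and -0.01 over all tested genes, and the median size of the change regardless of sign was 0.14 and 0.22. The members were also more abundant, with a median level of 42.8 FPKM against 10.5 over all tested genes. The part of abundance in the size of the changes was not tested. No member passed with a change of at least 2-fold, which 3.41% of all tested genes did. Only MYBL2 and SPC25 differed by more than 0.5 on the log2 scale. The summed FPKM of the members was 2641, 2608 and 2584 in the controls and 2640, 2608 and 2628 in the resistant libraries, so the groups overlapped. Without control replicate 1 they barely did, with control replicate 2 at 2607.71 and resistant replicate 2 at 2607.70. Without control replicate 1, 15 members were called higher and 14 lower, which is 64.4% of the members, with 64.8% of all genes called. All 17 calls made with 6 libraries kept their direction in that comparison, and 12 were added. The FPKM values of the groups did not overlap for 14 members that were higher and 11 that were lower in resistant libraries, while 60.5% of all tested genes did not overlap. Where a role group had 0 members called in a direction by edgeR, the count was also 0 at an unadjusted p under 0.05, by DESeq2 and by limma, except for the kinesins. Some of these counts of 0 did not hold in other comparisons: the kinases and the passenger complex each had 1 member lower without control replicate 1 and with a loess correction for transcript GC content, the checkpoint had 2 lower with that correction, and the kinesins had 1 higher and 2 lower in both.

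**Figure D1:**
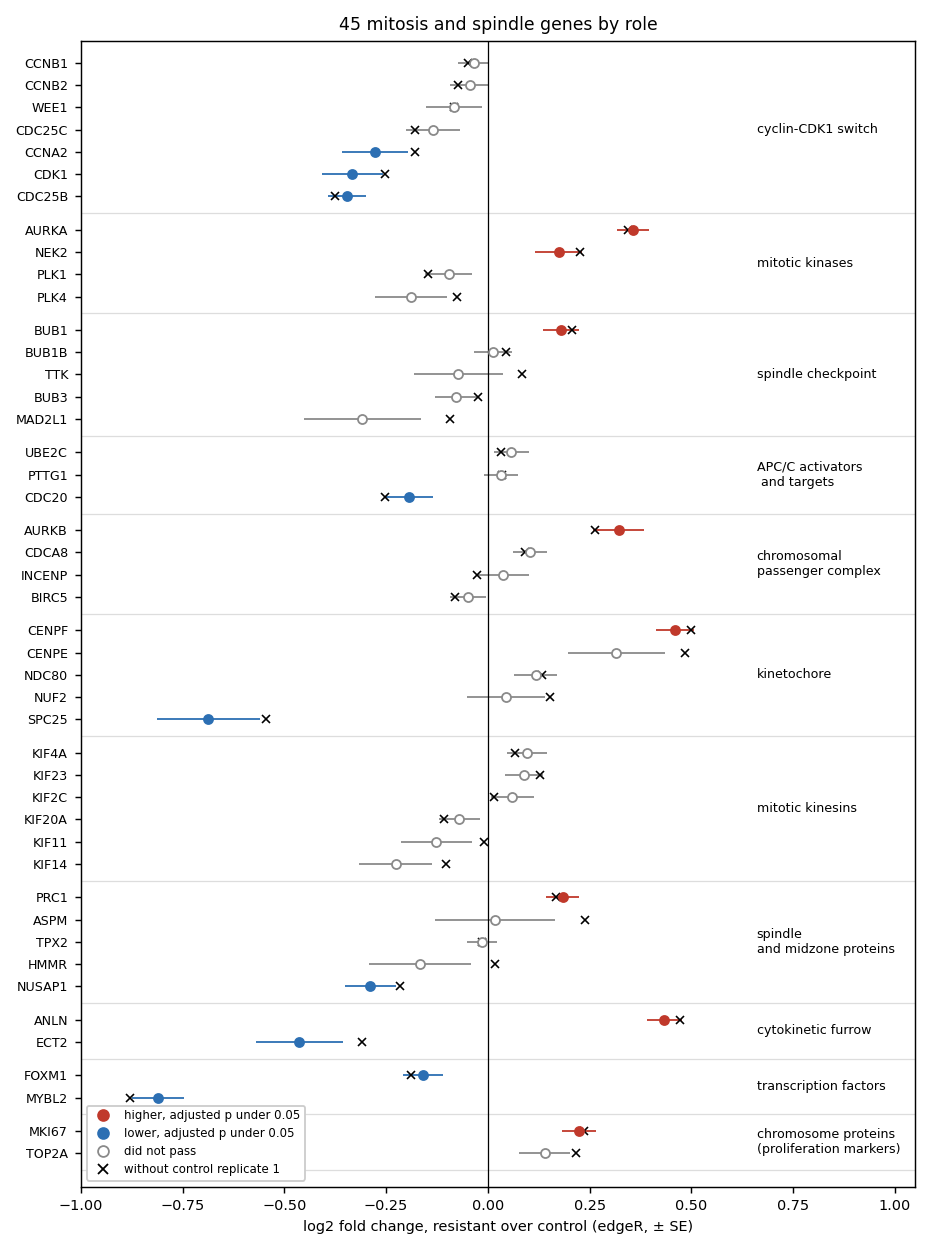
Log2 fold change (resistant over control, x axis) of the 45 members, grouped by role; points are edgeR estimates with their standard error, red and blue marking the 8 members called higher and the 9 called lower, and crosses the estimate without control replicate 1. The called members sit on both sides of 0, from CENPF at 0.46 to MYBL2 at -0.81, and open points crowd around 0.

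The largest difference among the members was in MYBL2, a MYB-family transcription factor that binds the MuvB complex and helps to switch on late cell cycle genes (hg19 chr20:42295659-42345136, plus strand). Its level was 88.4, 103 and 106 FPKM in control replicates 1 to 3 and 58.4, 57.3 and 56.1 FPKM in the resistant libraries. Every resistant library lay far below every control, with little spread among the resistant 3. MYBL2 fell by 0.81 ± 0.06 (SE) on the log2 scale, a decrease of 43.0% (edgeR adjusted p = 2.23e-05). FOXM1, the forkhead factor that drives the G2 and mitosis genes, was at 40.8, 42.7 and 45.3 FPKM in controls and 37.9, 39.2 and 39.8 FPKM in resistant libraries. The groups did not overlap but lay close together, and the fall was -0.16 ± 0.05 (adjusted p = 0.0245). FOXM1 lost its call in 8 of 16 alternatives, among them any comparison that left out a library other than control replicate 1. It also overlaps LOC100507424 on the opposite strand by 2115 bases, a gene that was lower as well (-0.20, adjusted p = 0.0331), and without a stated strand setting reads from the overlap cannot be assigned.

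Many late cell cycle promoters carry a short element called the CHR, with the core TTTGAA or its variant TTCGAA, through which MuvB complexes bind. RefSeq promoter windows (GRCh38.p14, 250 bases before to 50 after the start) were matched by symbol for 37 of the 45 members. On either strand, 28 of these 37 genes (75.7%) held TTTGAA or TTCGAA, against 19.5% of 27305 genes with a window, and 30 of 37 (81.1%) held CCAAT against 39.7%. Searching both strands takes in the reverse complements TTCAAA and ATTGG, and neighbouring motifs can share a letter. The 4 promoters below are shown because they hold TTTGAA close to the start and belong to genes often described as FOXM1 or MuvB targets, 1 of which fell in the resistant cells while the others did not pass. Each is the 150 bases directly before the start, plus strand, 5′ to 3′, with TTTGAA in capitals. They are CDK1 at chr10:60778328-60778477, CCNB2 at chr15:59104996-59105145, PLK1 at chr16:23678739-23678888 and KIF23 at chr15:69414199-69414348.
CDK1: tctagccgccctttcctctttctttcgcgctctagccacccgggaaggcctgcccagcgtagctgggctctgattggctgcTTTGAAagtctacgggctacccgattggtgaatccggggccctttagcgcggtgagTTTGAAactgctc
CCNB2: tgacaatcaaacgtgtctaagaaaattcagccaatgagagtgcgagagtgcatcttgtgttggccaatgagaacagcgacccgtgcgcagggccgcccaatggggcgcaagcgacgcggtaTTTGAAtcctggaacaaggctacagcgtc
PLK1: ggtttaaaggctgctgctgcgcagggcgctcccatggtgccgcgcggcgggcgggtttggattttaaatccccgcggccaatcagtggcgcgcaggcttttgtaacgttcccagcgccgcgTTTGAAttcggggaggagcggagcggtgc
KIF23: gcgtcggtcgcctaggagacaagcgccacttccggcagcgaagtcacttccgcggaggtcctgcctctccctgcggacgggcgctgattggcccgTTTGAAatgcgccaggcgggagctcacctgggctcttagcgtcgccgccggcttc

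The motif begins 69 and 13 bases before the start in CDK1, 29 bases before it in CCNB2 and in PLK1, and 55 bases before it in KIF23. Of the 28 members whose window held TTTGAA or TTCGAA, 5 were called higher, 6 lower and 17 neither, with a median log2 fold change of -0.02, where 24.5% of all tested genes were higher and 25.7% lower. Of the 9 members with a window that held neither, 2 were called higher, 2 lower and 5 neither, with a median of 0.03. Genes sharing the letters were thus found on both sides of 0.

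In the cyclin-CDK1 switch, 0 of 7 members rose, 3 fell and 4 did not pass, where 24.5% of all tested genes were higher and 25.7% lower. CDK1, the kinase itself (hg19 chr10:62538089-62554611, plus strand), was at 131, 119 and 107 FPKM in controls and 100.3, 90.7 and 96.5 FPKM in resistant libraries. The groups did not overlap, although the controls were spread more widely than the gap between the closest libraries. CDK1 fell by 0.33 ± 0.08 with 6 libraries (adjusted p = 0.00633), and control replicate 1 was its highest library. The log2 fold change was -0.25 ± 0.04 without that library and -0.22 with the GC correction, both past the threshold. CCNA2, cyclin A2, which partners CDK2 and CDK1 from S phase into early mitosis, was at 51.2, 44.7 and 40.8 FPKM against 38, 36.9 and 39.5 FPKM. Control replicate 1 was the highest library, and the fold change was -0.28 with it and -0.18 without it, both past the threshold, although the call was lost when resistant replicate 1 or 2 was left out. CDC25B, the phosphatase that starts CDK1 activation at the centrosome, was at 24.3, 26.7 and 25.8 FPKM against 20.2, 20.5 and 20.6 FPKM. All resistant libraries lay below all controls (-0.35 ± 0.05, adjusted p = 0.000448).

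CCNB1, cyclin B1, was at 149.6, 157 and 155 FPKM in controls and 149.1, 153 and 154 FPKM in resistant libraries. The groups overlapped only through control replicate 1, the other controls lying above all resistant libraries. The log2 fold change was -0.04 ± 0.04 (adjusted p = 0.471). CCNB2, the second mitotic cyclin B, was also at -0.04 and overlapped in the same way. Without control replicate 1 neither passed, at -0.05 (adjusted p = 0.140) and -0.07 (adjusted p = 0.0714), but CCNB2 was called lower when the GC correction was applied as well (-0.13, adjusted p = 0.00232). WEE1, the kinase that inhibits CDK1, was the least abundant member at a mean of 7.80 FPKM, with a log2 fold change of -0.08. CDC25C, a CDC25 phosphatase active at mitotic entry, did not pass with 6 libraries (-0.13, adjusted p = 0.124) and was called lower without control replicate 1 (-0.18, adjusted p = 0.00867). It shares 821 bases with FAM53C on the opposite strand. With 6 libraries CDK1 RNA fell by 20.6%, and CCNB1 and CCNB2 differed by -2.41% and -3.02%, only the first past the threshold. With the GC correction and without control replicate 1, CDK1 (-0.27) and CCNB2 (-0.13) were called lower and CCNB1 (-0.04) was not. The difference between these changes was not tested.

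Among the 4 mitotic kinases 2 rose, 0 fell and 2 did not pass, against 24.5% higher and 25.7% lower over all tested genes. AURKA, which matures centrosomes and builds the spindle poles (hg19 chr20:54944445-54967393, minus strand), was at 106, 108 and 111 FPKM in controls and 142, 142 and 138 FPKM in resistant libraries. The groups were well separated, and AURKA rose by 0.36 ± 0.04 on the log2 scale, or 27.9% (adjusted p = 0.000134). Its processed copy AURKAPS1 was listed at 11.4 to 15.4 FPKM, and how the authors' counting split reads between near-identical genes is not given in the sources used here. NEK2, a kinase that separates centrosomes, was at 20.0, 18.6 and 17.8 FPKM against 21.6, 21.3 and 21.6 FPKM. The rise of 0.17 had an adjusted p of 0.0343 in edgeR's test and lost its call in 7 of 16 alternatives. PLK1, which acts at centrosomes, kinetochores and the midzone, had overlapping groups and a log2 fold change of -0.10 (adjusted p = 0.197), and was called lower without control replicate 1 (-0.15, adjusted p = 0.00165). PLK4, the master kinase of centriole duplication, did not pass in either comparison, at -0.19 and -0.08.

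AURKB, the kinase of the chromosomal passenger complex that corrects faulty attachments, also rose. It was at 32.4, 37.0 and 37.4 FPKM in controls and 46.7, 44.1 and 44.3 FPKM in resistant libraries. Control replicate 1 was the lowest control, and the rise was 0.32 ± 0.06 with it (adjusted p = 0.00297) and 0.26 ± 0.04 without it. The other 3 subunits did not pass with 6 libraries. They were the scaffold INCENP at 0.04, CDCA8 (borealin) at 0.10 and BIRC5 (survivin) at -0.05, the last being the most abundant member with a mean of 171 FPKM. Without control replicate 1 the calls were CDCA8 higher (0.09) and BIRC5 lower (-0.08), but with the GC correction CDCA8 did not pass (0.03, adjusted p = 0.406), while BIRC5 did (-0.12, adjusted p = 0.00259). Over all tested genes 24.5% were higher and 25.7% lower with 6 libraries. The shares were 31.9% and 32.9% without control replicate 1, and 29.4% and 34.6% with the GC correction.

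**Figure D2:**
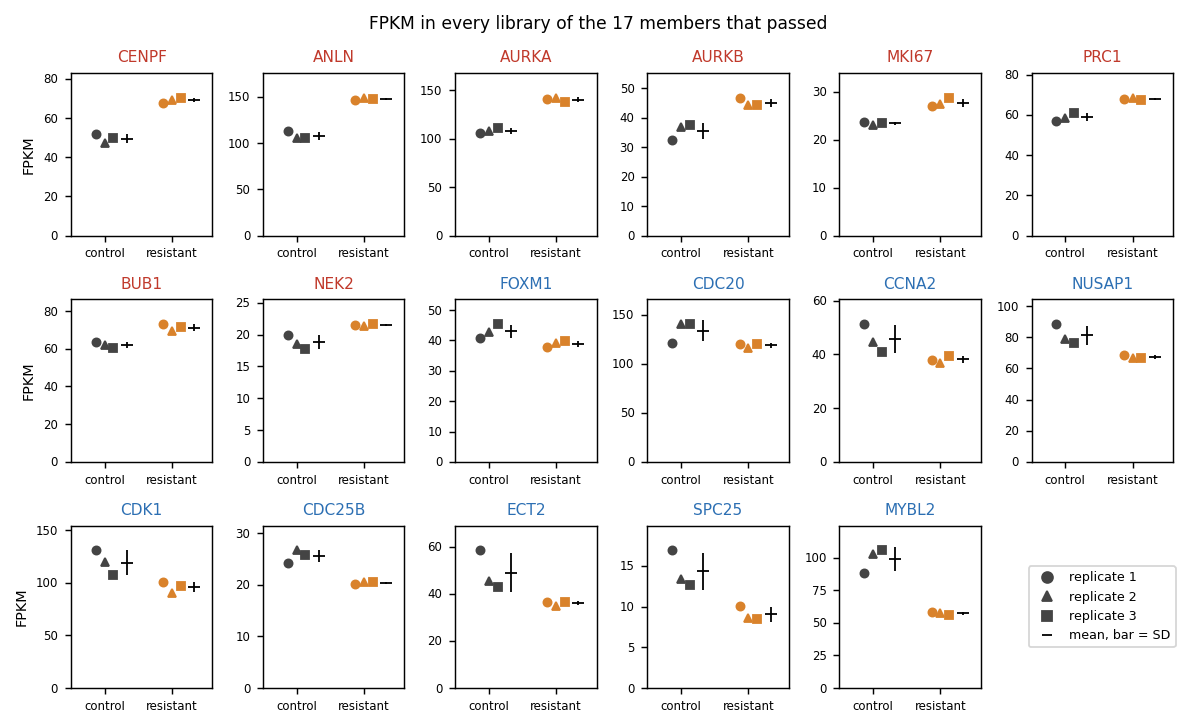
FPKM (y axis, from 0) in every library of the 17 members that passed, with control libraries in grey, resistant libraries in orange, marker shape giving the replicate, and the bar beside each group its mean and SD over 3 libraries. The groups do not overlap in any of the 17 panels, and the narrowest gaps are in CDC20 and FOXM1. The panels were chosen for passing in these same libraries, and 60.5% of all tested genes did not overlap.

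Of 5 spindle checkpoint members 1 rose, 0 fell and 4 did not pass, where 24.5% of all tested genes were higher and 25.7% lower. BUB1, the kinase that recruits checkpoint proteins and shugoshin to kinetochores, was at 63.7, 61.8 and 60.6 FPKM in controls and 73.0, 69.3 and 71.4 FPKM in resistant libraries. The groups did not overlap and BUB1 rose by 0.18 ± 0.04 (adjusted p = 0.0087). BUB1B, which encodes BUBR1 of the mitotic checkpoint complex, was at 0.01, and BUB3, its binding partner, at -0.08 (adjusted p = 0.230). MAD2L1, the MAD2 protein that captures CDC20, was at 39.95, 28.1 and 26.5 FPKM in controls and 25.9, 24.8 and 26.8 FPKM in resistant libraries. Only control replicate 1 was high, and the fold change moved from -0.31 ± 0.14 with it (adjusted p = 0.106) to -0.09 ± 0.05 without it (adjusted p = 0.128). With the GC correction and 6 libraries, MAD2L1 and BUB3 were called lower, at -0.19 (adjusted p = 0.0171) and -0.13 (adjusted p = 0.00819), and with control replicate 1 left out as well at -0.11 (adjusted p = 0.0481) and -0.09 (adjusted p = 0.00635). TTK, the kinase at the head of the checkpoint, went from -0.07 to 0.08 without control replicate 1 and did not pass in either comparison.

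In the APC/C branch, CDC20 fell and the other 2 members did not pass, where 24.5% of all tested genes were higher and 25.7% lower. CDC20, the activator that the checkpoint holds back, was at 121, 140.2 and 140.4 FPKM in controls and 120.3, 116 and 120 FPKM in resistant libraries. The gap between control replicate 1 and the highest resistant library was under 1 FPKM. The fold change was -0.19 (adjusted p = 0.0228), and -0.25 without control replicate 1 (adjusted p = 4.22e-07), but the call was lost in 7 of 16 alternatives. UBE2C, the conjugating enzyme that starts ubiquitin chains for the APC/C, was at 0.06. PTTG1, securin, which the APC/C destroys to free separase, was at 0.03, and its copies PTTG2 and PTTG3P were listed at 20.1 to 34.6 FPKM, so its own level is uncertain where reads were shared.

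The kinetochore members split. CENPF, a large protein of the outer kinetochore and nuclear envelope (hg19 chr1:214776532-214837914, plus strand), showed the highest log2 fold change of any member. It was at 51.6, 47.2 and 49.8 FPKM in controls and 67.9, 69.2 and 70.2 FPKM in resistant libraries. All 3 resistant libraries lay above all controls, and CENPF rose by 0.46 ± 0.05, or 37.5% (adjusted p = 8.15e-05). SPC25, a subunit of the NDC80 complex that grips microtubules (hg19 chr2:169727401-169746944, minus strand), was at 16.9, 13.4 and 12.6 FPKM in controls and 10.1, 8.56 and 8.44 FPKM in resistant libraries. The groups did not overlap, and SPC25 fell by 0.69 ± 0.13 with 6 libraries (adjusted p = 0.00224) and by 0.55 ± 0.08 without control replicate 1 (adjusted p = 1.38e-05).

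NDC80 and NUF2, which form the other arm of the complex to which SPC25 belongs, were called neither higher nor lower with 6 libraries. NDC80 was at 0.12 (adjusted p = 0.0916) and NUF2 at 0.04, and without control replicate 1 both were called higher, at 0.13 (adjusted p = 0.00723) and 0.15 (adjusted p = 0.0209). CENPE, the kinetochore motor that carries chromosomes to the spindle equator, was at 17.4, 13.3 and 12.3 FPKM in controls and 18.6, 16.8 and 18.9 FPKM in resistant libraries. Control replicate 1 alone reached the resistant range. The fold change was 0.32 ± 0.12 with it (adjusted p = 0.055) and 0.48 ± 0.04 without it (adjusted p = 2.06e-08). Over the 5 kinetochore members the calls were 1 higher and 1 lower with 6 libraries, and 4 higher and 1 lower without control replicate 1. Over all tested genes, 24.5% were higher and 25.7% lower in the first comparison, and 31.9% and 32.9% in the second.

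Of the 6 mitotic kinesins, edgeR's adjusted test called 0 with 6 libraries, where 50.2% of all tested genes were called. At an unadjusted p under 0.05 edgeR had 1 lower, DESeq2 called 1 lower after adjustment and limma called 0, the gene being KIF14. KIF4A, a chromosome-arm motor, was at 0.10 with groups that did not overlap, but reads may be shared with its copy KIF4B, listed at 5.66 to 6.36 FPKM. KIF23, the motor of the centralspindlin complex, was at 0.09 and was called higher without control replicate 1 (0.13, adjusted p = 0.00142). KIF14, which acts in cytokinesis, was at -0.23 (edgeR adjusted p = 0.0638) and KIF20A, a midzone motor, at -0.07, and both were called lower without control replicate 1, at -0.10 and -0.11. KIF11, the motor that pushes the spindle poles apart, moved from -0.13 to -0.01, and KIF2C, a microtubule depolymerase at centromeres, from 0.06 to 0.01.

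Among 5 spindle and midzone proteins 1 rose, 1 fell and 3 did not pass, against 24.5% higher and 25.7% lower over all tested genes. PRC1, which bundles antiparallel microtubules in the midzone, was at 57.0, 58.6 and 61.1 FPKM in controls and 67.8, 68.4 and 67.4 FPKM in resistant libraries. The groups did not overlap (0.18 ± 0.04, adjusted p = 0.00603), but PRC1-AS1 lies over 22256 bases of the gene on the opposite strand and was higher too (0.23, adjusted p = 0.00996), and the 2 cannot be told apart without a strand setting. NUSAP1, a microtubule-bundling protein near chromosomes, was at 88.4, 78.8 and 76.4 FPKM against 68.9, 66.6 and 66.8 FPKM. It fell by 0.29 with 6 libraries (adjusted p = 0.00505) and by 0.22 without control replicate 1. TPX2, which activates Aurora A on the spindle, was at -0.01 with 98.8 to 101.5 FPKM over the 6 libraries, and was called lower only with the GC correction and without control replicate 1 (-0.08, adjusted p = 0.0135). ASPM, a spindle pole protein, moved from 0.02 ± 0.15 to 0.24 ± 0.04 (adjusted p = 0.000136) without control replicate 1, and HMMR, a spindle assembly factor overlapped by HMMR-AS1, from -0.17 to 0.02.

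The cytokinetic furrow held opposite changes. ANLN, anillin, the scaffold of the contractile ring (hg19 chr7:36429412-36493401, plus strand), was at 112, 105 and 105 FPKM in controls and 146, 149 and 148 FPKM in resistant libraries. It rose by 0.43 ± 0.04, or 35.1% (adjusted p = 8.01e-05). It shares 323 bases with KIAA0895 on the opposite strand, which was higher by the same amount (0.43, adjusted p = 0.000885), and the part of shared reads was not tested. ECT2, the exchange factor that activates RHOA at the furrow (hg19 chr3:172468475-172539264, plus strand), was at 58.4, 45.4 and 43.0 FPKM in controls and 36.7, 35.0 and 36.4 FPKM in resistant libraries. All resistant libraries lay below all controls, and control replicate 1 was the highest library. ECT2 fell by 0.46 ± 0.11 with it (adjusted p = 0.00689) and by 0.31 ± 0.03 without it (adjusted p = 1.2e-07).

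The common proliferation markers were slightly higher or not called. MKI67, which encodes Ki-67 on the surface of mitotic chromosomes, was at 23.7, 23.1 and 23.6 FPKM in controls and 27.0, 27.5 and 28.7 FPKM in resistant libraries. The groups did not overlap and MKI67 rose by 0.22 ± 0.04, or 16.7% (adjusted p = 0.00239). TOP2A, the topoisomerase that untangles chromosomes, was at 109, 96.2 and 93.5 FPKM against 112, 108 and 114 FPKM. Control replicate 1 overlapped the resistant group, and TOP2A went from 0.14 (adjusted p = 0.0953) to 0.22 (adjusted p = 2.74e-06) without it. Over all tested genes 24.5% were higher and 25.7% lower with 6 libraries, and 31.9% and 32.9% without control replicate 1.

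The members' sensitivity to control replicate 1 followed their base composition. Transcript GC content ran from 35.3% to 60.5% with a median of 43.2%, below the 48.8% of all tested genes. Across the 45 members, the deviation of control replicate 1 from the mean of the other controls correlated with GC content at r = -0.85 (Spearman rho -0.91), a description across genes of the same libraries. The 12 members with under 40% GC were all higher in control replicate 1, by 0.22 to 0.59 on the log2 scale, and had 0 calls higher and 2 lower with 6 libraries but 4 higher and 3 lower without it. The other 33 deviated by -0.22 to 0.40 and went from 8 higher and 7 lower to 11 and 11. Calls over all tested genes rose as well, from 24.5% higher and 25.7% lower to 31.9% and 32.9%. With a correction of every library for GC content, 14 members were called higher and 16 lower, with 63.9% of all genes called, and all 17 calls made without the correction kept their direction. With the correction and without control replicate 1 the counts were 14 and 18, where 66.5% of all genes were called, 30.4% higher and 36.1% lower. Other differences between control replicate 1 and the remaining libraries were not tested.

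**Figure D3:**
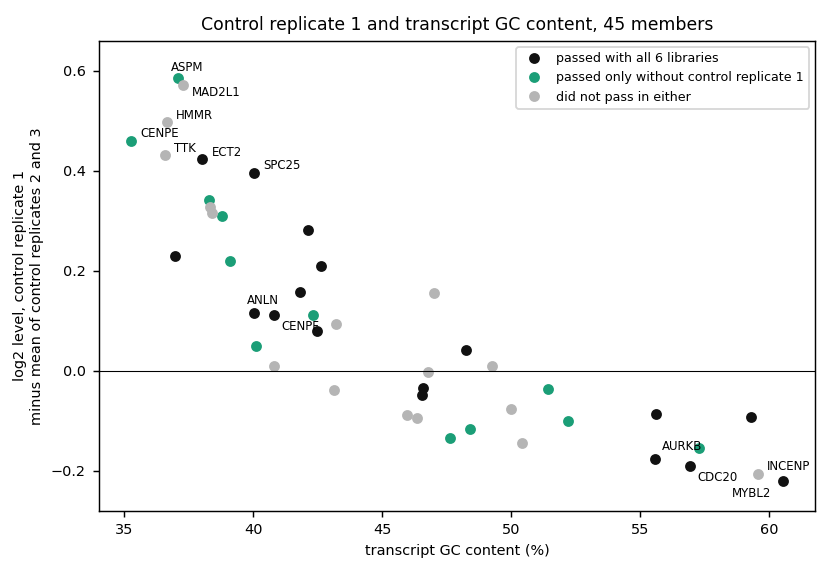
Log2 level of control replicate 1 minus the mean of control replicates 2 and 3 (y axis) against transcript GC content in % (x axis) for the 45 members; black points passed with 6 libraries, green points passed only without control replicate 1, and grey points in neither. Points fall from 0.59 at the low-GC end to -0.22 at 60.5% GC.

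The members were set beside 141 further genes of mitosis, in 7 lists of complexes and pathways. Single genes of these lists are given here with all 6 libraries only. The part of control replicate 1 in their changes was not tested. Of these, 24 rose, 45 fell and 72 did not pass, with a median log2 fold change of -0.07, against the same background of 24.5% higher and 25.7% lower. Without control replicate 1 the counts were 44 higher and 51 lower with a median of -0.01, where 31.9% of all genes were higher and 32.9% lower. The APC/C list had 1 member higher and 7 lower of 18. The lower ones included the scaffold subunit ANAPC4 (-0.46, from 10.0 ± 1.33 to 7.38 ± 0.37 FPKM, SD, n = 3) and the repeat-containing subunits CDC16 (-0.34) and CDC27 (-0.30). The list of cohesin, condensin and separase had 1 higher and 9 lower of 24. PDS5B, a cohesin regulator, fell by 0.66, SGO2, a protector of centromeric cohesion, by 0.59 and SMC4, the core ATPase of condensin, by 0.50.

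Of 32 centromere and kinetochore genes, 3 rose and 12 fell with 6 libraries, where 24.5% of all tested genes were higher and 25.7% lower. Leaving out control replicate 1 gave 11 and 12, where 31.9% of all genes were higher and 32.9% lower. CENPH, a subunit of the inner kinetochore, showed the largest fall, from 13.6 ± 2.49 to 7.76 ± 0.43 FPKM (SD, n = 3; -0.83, edgeR adjusted p = 0.000997). It was followed by SKA3, which helps kinetochores hold microtubule ends (-0.53), and OIP5, which loads the centromeric histone CENPA (-0.47). Centrosome and spindle assembly genes were the only list of the 7 with more members higher than lower with 6 libraries, 13 and 6 of 34, and 16 and 8 without control replicate 1, where the MuvB and DREAM list also had more higher. CKAP2L, a spindle protein, rose by 0.51, whereas HAUS2, of the augmin complex, and FAM83D, which recruits a kinase to the spindle, both fell by 0.48.

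Of 9 cytokinesis genes 2 rose and 4 fell, where 24.5% of all tested genes were higher and 25.7% lower. CIT, citron kinase of the midbody, rose from 14.4 ± 0.63 to 21.5 ± 0.81 FPKM (SD, n = 3; 0.56, edgeR adjusted p = 3.89e-05). RACGAP1, which forms centralspindlin with KIF23 and binds ECT2, rose by 0.23, and SHCBP1, a midbody protein, fell by 0.46. Among 12 regulators of CDK1 and mitotic entry and exit, 2 rose and 4 fell, including BORA, the activator of Aurora A (-0.38), PPP2R2A, a phosphatase subunit that reverses CDK1 phosphorylation (-0.36), and CKS2, a small CDK1-binding protein (-0.28). Of 12 MuvB and DREAM genes 2 rose and 3 fell with 6 libraries, or 6 and 3 once control replicate 1 was left out. Without that library, 31.9% of all tested genes were higher and 32.9% lower. The E2F partner TFDP2 rose from 3.77 ± 0.25 to 6.54 ± 0.10 FPKM (SD, n = 3), while its paralogue TFDP1 fell from 59.7 ± 1.72 to 43.9 ± 1.36 FPKM, and LIN9, a MuvB subunit, fell by 0.33.

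**Figure D4:**
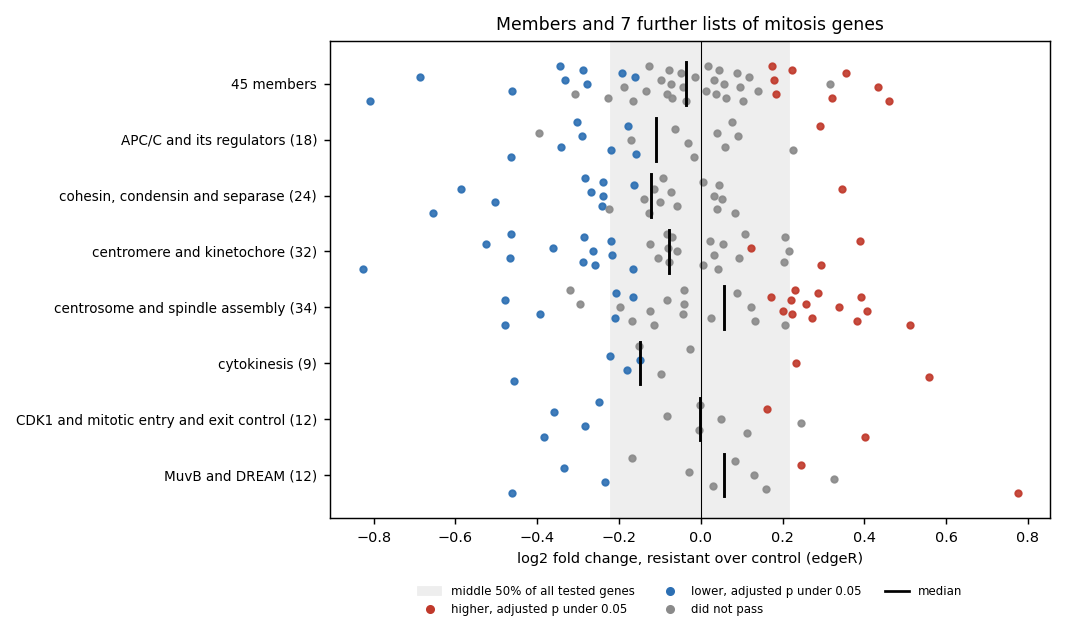
Log2 fold change (resistant over control, x axis) of the 45 members and of 7 further lists of mitosis genes, with the number of tested genes in brackets; each point is a gene, black bars are medians, and the grey band holds the middle 50% of all tested genes (-0.22 to 0.22). Medians lie between -0.15 for cytokinesis and 0.06 for MuvB and DREAM, all inside the band.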

How the data were processed

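RNA of 3 control and 3 resistant PC-3 libraries was analysed from 1 table per library. The members and gene lists were chosen with earlier results of these data known. The aligner was TopHat2 2.0.6 and the genome build hg19, per the submitters' processing notes. No source used here gives the counting tool, the gene models or the strand setting. The fragment count of each gene was deposited as a whole number, not normalized, per the file headers. FPKM values came from the authors, who divided each count by mRNA size and by 1 total per library. The deposited score (FPM, a count scaled by that total) was used only to recover the total, which the summed gene counts exceeded by 5.56% to 5.84%. Positions are hg19 as deposited, counted from 1.

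Rows with repeated symbols (849 rows, 396 symbols) were left out. The remaining 13070 genes averaging at least 1 FPKM over the libraries were tested with edgeR 4.0.16 in R 4.3.3 (quasi-likelihood, TMM, group as the only term, Benjamini-Hochberg adjustment, threshold 0.05). TMM factors ran from 0.985 to 1.009, with a biological coefficient of variation of 7.17%. Log2 fold changes are resistant over control, and FPKM means carry the SD of 3 libraries. The standard error was derived as the size of the log2 fold change divided by the square root of edgeR's F statistic. The main edgeR test was run on simulated counts with known changes, at a common dispersion and with no GC difference between libraries. The alternatives and the promoter search were not simulated.

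Every member was named. Members that passed, and CDK1, CCNB1, FOXM1, MKI67 and TOP2A in any case, could be given in every library, and other members as examples; CENPE and MAD2L1 were given in every library after their values were seen. From each further list, the rule took up to 3 passing genes with the largest change among those reaching an average of 5 FPKM in either group. The 147 listed symbols include earlier and current names of the same genes, such as SGOL2 and SGO2, and 141 symbols were found and tested. Promoter windows came from RefSeq (GRCh38.p14), with up to 4 shown that held TTTGAA nearest the start.

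Alternatives were DESeq2 1.42.0, limma 3.58.1 (limma-trend, log2 of FPKM plus 0.5 or 1), RLE normalization, no filter, a filter at 5 FPKM, a replicate block, leaving out each library, and a GC correction. The correction applied loess offsets of span 0.3 to the GC content of transcripts in GENCODE 29, an annotation of another build from which no coordinates were taken, for 12503 genes. Some items are not reported here.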

Additional observations from a re-analysis of the deposited data

How the results depend on the processing

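Of the 17 called members, 13 had the same call in all 16 alternatives (ANLN, AURKA, AURKB, BUB1, CDC25B, CDK1, CENPF, ECT2, MKI67, MYBL2, NUSAP1, PRC1 and SPC25). The other calls, CCNA2, CDC20, FOXM1 and NEK2, were lost in 24 of 272 comparisons of a called member with an alternative. All alternatives drew on the same 6 libraries. The share of all called genes that kept their call is not given here, so 13 of 17 has no background beside it. The counts of members were 14 higher and 16 lower with the GC correction, 14 and 18 with the GC correction and without control replicate 1, and 14 and 16 with the GC correction and a replicate block. Over all tested genes the shares were, in the same order, 29.4% higher and 34.6% lower, 30.4% and 36.1%, and 29.1% and 34.4%. Leaving out each library in turn gave 7 to 15 members higher and 6 to 14 lower, the highest counts being those without control replicate 1. The members' median log2 fold change was -0.065 with no filter on low values, -0.0032 with a mean FPKM of at least 5, and -0.031 to -0.011 with a library left out. The further mitosis genes had 38 higher with the GC correction and without control replicate 1, 37 with the GC correction and replicate block, and 18 to 44 higher and 28 to 51 lower with a library left out. The lowest counts lower, 28 to 29, came without a resistant library. The cause of these shifts was not tested. Over all tested genes, leaving out a library gave 2544 to 4165 higher and 2368 to 4298 lower. These are 19.5% to 31.9% and 18.1% to 32.9% of the tested genes.

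The replicate numbers are shared between the groups. Deviations of same-numbered libraries from their group means correlated at r = -0.03, 0.04 and -0.09. Among the controls these deviations ran strongly with GC content, so the check cannot show whether a number marks a shared batch. With the replicate block 8 members were higher and 9 lower, where 23.4% of all tested genes were higher and 24.7% lower.

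Changes of sign affected 11 members that had not passed, and in 0 of these comparisons did the changed value pass. The GC correction, alone, without control replicate 1 and with the block, gave UBE2C -0.0063, -0.024 and -0.0062, KIF2C -0.0055, -0.042 and -0.0050, PTTG1 -0.024, -0.019 and -0.024, TTK 0.059, 0.072 and 0.060, and INCENP -0.014, -0.030 and -0.013. CCNB1 was 0.015 with the correction and 0.016 with the block as well, and HMMR 0.0036 with the correction and without control replicate 1. TPX2 was 0.0052 with both limma pseudocounts and 0.017 with a mean FPKM of at least 5. With no filter, BUB1B was -0.016 and ASPM -0.010. With a library left out, the log2 fold changes ranged from -0.26 to 0.017 for HMMR, -0.15 to 0.085 for TTK, -0.028 to 0.097 for INCENP, -0.030 to 0.15 for NUF2, -0.020 to 0.0021 for TPX2, -0.0025 to 0.045 for BUB1B and -0.098 to 0.24 for ASPM.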

Other observations

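The genes named here were chosen after their values were seen. SPC24, which pairs with SPC25 in the arm of the NDC80 complex that faces the chromosome, was lower along with its partner. Its level was 24.7, 26.7 and 26.8 FPKM in controls and 22.7, 22.7 and 20.7 FPKM in resistant libraries. All resistant libraries lay below all controls, as for 28.5% of all tested genes. The difference was -0.26 ± 0.06 on the log2 scale (edgeR adjusted p = 0.00541), or -0.29 without control replicate 1. SPC24 kept its call in all 16 alternatives, as SPC25 did. The microtubule-facing partners NDC80 and NUF2 were at 0.12 and 0.04 with 6 libraries, and the difference between the arms was not tested.

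In the centrosome and spindle assembly list 13 of 34 genes rose, 6 fell and 15 did not pass, against 24.5% higher and 25.7% lower over all tested genes. From this list, 3 further genes may be given with their values. PCNT, pericentrin, the scaffold of the pericentriolar material, was at 8.39, 8.80 and 8.86 FPKM in controls and 11.3, 11.8 and 11.9 FPKM in resistant libraries (0.41 ± 0.05, edgeR adjusted p = 0.000143). CEP152, which recruits PLK4 to centrioles, was at 4.904, 4.69 and 4.60 FPKM against 6.39, 6.10 and 6.39 FPKM (0.39). NUMA1, which anchors dynein at the spindle poles, was at 38.3, 43.7 and 46.8 FPKM against 56.5, 57.4 and 56.4 FPKM (0.38). In each of these genes every resistant library lay above every control, and each call held in all 16 alternatives. The same separation was found for 31.9% of all tested genes. The 3 genes were picked with their values known, so their separation says nothing about the list.

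Of the 141 further mitosis genes, 8 lie on chromosome 13, where 113 of 232 tested genes were lower and 19 higher with a median log2 fold change of -0.21. Of these 8, 6 were lower (CDC16, PDS5B, SKA3, TUBGCP3, BORA and TFDP1), 1 was higher (CENPJ) and CKAP2 did not pass, with a median of -0.36. The 133 on other chromosomes had 23 higher and 39 lower with a median of -0.06. None of the 45 members lies on chromosome 13 (0 of 45).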
